A study of Mus musculus with 8 samples.

Results

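This report covers 10 genes of mouse prostate epithelium whose products write, erase or work beside the histone marks of enhancers and silenced genes: Ezh1, Ezh2, Eed and Suz12 of the Polycomb repressive complex PRC2, the demethylases Kdm6b, Kdm1a, Kdm5a and Kdm5b, and the acetyltransferases Crebbp and Ep300. They were taken by symbol from the 55335 Ensembl identifiers in the tables, all 10 were found, and all 10 were among the 14000 genes that reached 1 FPKM in at least 2 libraries and were tested. FPKM scales the fragments of a gene by its length and by the size of its library.

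RNA came from prostate cells sorted as EpCAM+, CD24A+ and CD49F-low, in 8 libraries of 4 groups, 2 per group (A and B). The PP mice carry 1 prostate genotype that all 8 libraries share, and the PPK mice carry Kmt2cPC-/- in addition. Kmt2c encodes a methyltransferase that places H3K4 monomethylation at enhancers. Each genotype was taken as sham at 3.5 months and after ADT, the label's abbreviation for the treatment, at 6.5 months. Treatment and age therefore move together and cannot be told apart in any comparison of ADT with sham. The labels do not say what drives the deletion, nor whether A and B are separate animals, so the spread behind each p-value is that between the libraries of a pair and may be technical.

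PRC2 silences genes by methylating H3K27: Ezh2, or its less active paralog Ezh1, is the catalytic subunit, and Eed and Suz12 are the core subunits without which neither works. Kdm6b removes the same mark, while Crebbp and Ep300 acetylate H3K27 at active enhancers, where methylation and acetylation of the residue exclude each other. Kdm1a removes H3K4 mono- and dimethylation, the mark that Kmt2c writes, and acts with CoREST corepressors and, in prostate, with the androgen receptor. Kdm5a and Kdm5b remove H3K4 trimethylation. EZH2 is known for high levels in proliferating cells and in advanced prostate cancer.

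The library sums ran from 284014.5 to 333977.5 FPKM, and replicates correlated at 0.986 to 0.988 over all tested genes on the log2 scale. On principal component 1, with 63.9% of the variance, PPK ADT lay at 79.5 and 79.8 and the other 6 libraries between -41.8 and -4.04. Kmt2c, the targeted gene, had 13.25 and 13.87 FPKM in PP sham against 8.671 and 8.149 in PPK sham, and 10.33 and 9.326 in PP ADT against 6.603 and 6.364 in PPK ADT. It was lower in PPK in both comparisons, by 1.55-fold in sham and 1.45-fold in ADT on the log2(FPKM + 1) scale used for every fold below, so its level was reduced and not lost, and the labels used here do not say which exons are deleted. Depth is unknown because no counts are in the tables. The order of the 10 genes by mean FPKM in PP sham ran from Kdm6b at 47.19 and Kdm1a at 22.64 down to Ezh2 at 3.855, which places Kdm6b at the 94th percentile of tested genes and Ezh2 at the 42.6th.

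In intact mice the 10 genes showed no call between the genotypes. In the limma fit none of the 10 passed an adjusted p under 0.05 between PPK sham and PP sham, where 28.6% of all tested genes passed. At an unadjusted p under 0.05 there were 2, Ezh1 and Ep300, beside 39.5% of all tested genes. After ADT, 6 of 10 differed between PPK and PP: Ezh2, Kdm6b, Kdm5b and Crebbp were higher in PPK (4 of 10, beside 32.5% of all tested genes), and Ezh1 and Kdm1a were lower (2 of 10, beside 27.1%). That share is close to the 59.6% of all tested genes called in the same comparison, so their count does not set them apart. None of the 6 reached 2-fold on this scale, a size passed by 17.8% of tested genes, but Ezh1 was past it, at a log2 fold change of -1.07, with 0.1 FPKM added in place of 1, and also with median-of-ratios scaling. The median log2 fold change of the 10 was -0.05 in sham and 0.20 in ADT, beside -0.01 and 0.05 over all tested genes. The balance of all called genes after ADT turned with the scaling, from 4552 higher and 3788 lower to 3963 and 4418 with median-of-ratios scaling, under which the median of the 10 was 0.10 and the same numbers of the 10, 4 higher and 2 lower, were called.

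**Figure D1:**
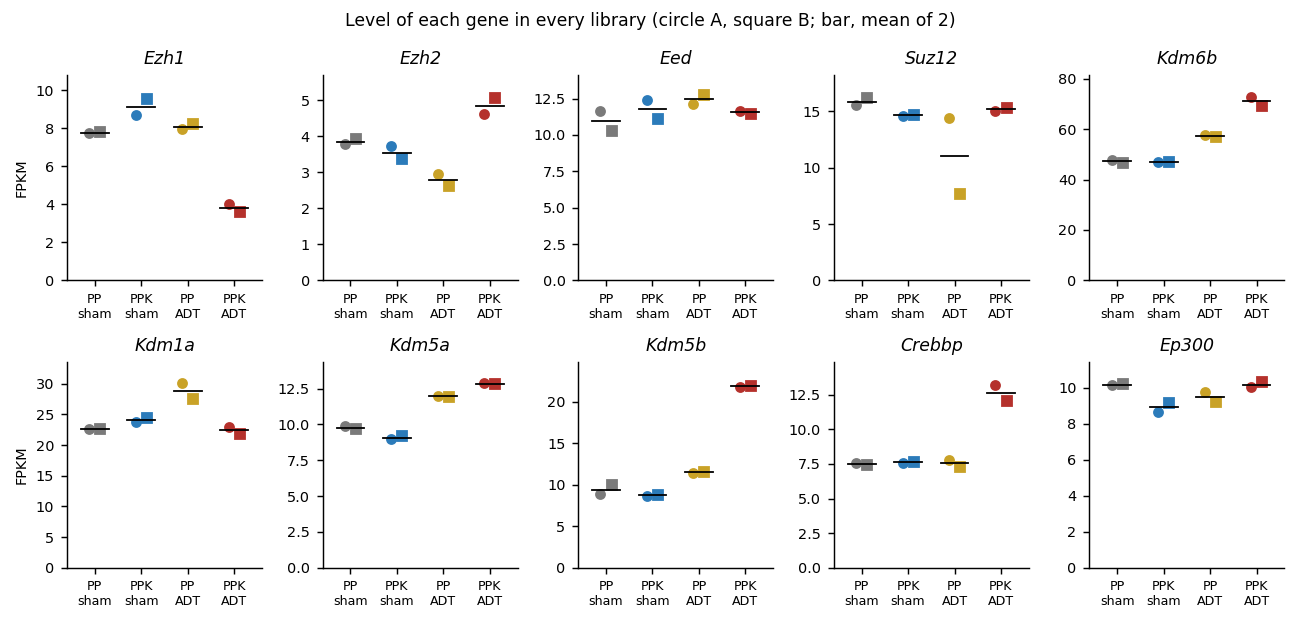
FPKM of each of the 10 genes (1 panel per gene) in the 4 groups, 1 point per library (circle A, square B) with the mean of 2 as a bar. The PPK ADT points stand above all others for Ezh2, Kdm6b, Kdm5a, Kdm5b and Crebbp and below all others for Ezh1, and 1 PP ADT library stands alone for Suz12.

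Ezh1 (ENSMUSG00000006920; GRCm38 chr11:101191115-101226463, minus strand) and Ezh2 (ENSMUSG00000029687; chr6:47530139-47595341, minus strand) moved in opposite directions in PPK ADT. Ezh1 measured 7.717 and 7.783 FPKM in PP sham, 8.692 and 9.533 in PPK sham, 7.929 and 8.224 in PP ADT, and 3.992 and 3.603 in PPK ADT. The 2 PPK ADT libraries were the lowest of the 8 and did not overlap any group, while the other 6 lay within 7.717 to 9.533. Groups without overlap were common: between PPK and PP, 64.8% of all tested genes did not overlap in sham and 80.1% in ADT. For ADT against sham the share was 74% in PP and 81.3% in PPK. Of the 10 genes, 8, 10, 9 and 9 did not overlap in these comparisons, so lack of overlap alone sets no gene here apart. The level in PPK ADT was 1.89-fold below PP ADT (log2 -0.92, SE 0.07, limma adjusted p = 4.87e-05) and 2.11-fold below PPK sham (log2 -1.08, adjusted p = 2.09e-05). In sham the PPK libraries were 1.15-fold above PP without passing the test (log2 0.21, limma adjusted p = 0.0725, 95% interval 0.04 to 0.38).

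Ezh2 measured 3.774 and 3.936 FPKM in PP sham, 3.717 and 3.37 in PPK sham, 2.951 and 2.627 in PP ADT, and 4.61 and 5.073 in PPK ADT. PP ADT was the lowest group and PPK ADT the highest, neither overlapping another group, and the sham groups lay next to each other between them. After ADT it was 1.54-fold higher in PPK than in PP (log2 0.62, SE 0.0846, limma adjusted p = 0.000793). The difference of ADT from sham ran in opposite directions in the 2 genotypes, with a fall in PP (log2 -0.36, limma adjusted p = 0.0145) and a rise in PPK (log2 0.36, adjusted p = 0.00917). The fall in PP lost its call without PP sham B or PP ADT B, with a highest adjusted p of 0.074, and the rise in PPK lost it without PPK ADT B (adjusted p = 0.0562).

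The promoter sequences of Ezh1, Ezh2 and Kdm5b are shown because these 3 genes had the largest folds between PPK and PP after ADT among those whose promoter lies at least partly outside annotated exons. No binding, methylation or accessibility was measured here. Each run is the part of the 250 bases before the RefSeq start (GRCm38.p6) that lies outside annotated exons, written 5′ to 3′ on the gene's strand, with motif matches in capitals. The Ezh1 run is chr11:101226464-101226713 (minus strand). The Ezh2 run is chr6:47595059-47595183 (minus strand), 28 bases before the RefSeq start. It lies inside the annotated gene, which begins at 47595341 on this strand, and so downstream of that annotated start. The Kdm5b run is chr1:134559928-134560170 (plus strand), 7 bases before the start.
Ezh1: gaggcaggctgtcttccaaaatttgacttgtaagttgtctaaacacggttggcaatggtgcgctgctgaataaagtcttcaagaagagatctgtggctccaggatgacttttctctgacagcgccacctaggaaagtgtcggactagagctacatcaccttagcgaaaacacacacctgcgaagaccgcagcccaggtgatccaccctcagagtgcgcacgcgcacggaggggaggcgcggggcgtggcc
Ezh2: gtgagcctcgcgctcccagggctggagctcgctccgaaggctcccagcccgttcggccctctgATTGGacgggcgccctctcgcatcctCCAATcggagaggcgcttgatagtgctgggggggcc
Kdm5b: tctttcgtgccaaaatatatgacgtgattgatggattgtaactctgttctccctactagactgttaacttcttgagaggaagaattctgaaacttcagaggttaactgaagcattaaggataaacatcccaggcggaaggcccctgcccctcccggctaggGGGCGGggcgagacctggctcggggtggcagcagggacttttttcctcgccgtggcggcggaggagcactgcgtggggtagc
The motifs searched on both strands were the CCAAT box (CCAAT), the GC box (GGGCGG) and 4 E2F letters (TTTCCCGC, TTTCGCGC, TTTGCCGC and TTTGGCGC), none of which share a match here. Ezh2 held 3 CCAAT matches in its full 250 bases, 2 of them in the run above, where ATTGG is the match on the other strand. Of 32817 promoters of this length, 33.8% hold a CCAAT match, 32.7% a GC box and 1.86% an E2F match. Kdm5b held 1 GC box, and Ezh1 none of the motifs. RefSeq promoters matched 8 of the 10 genes, all but Kdm6b and Kdm5a. Suz12 was the 1 matched gene with an E2F match, 219 bases before its start.

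The ratio of Ezh2 to Ezh1, both per length in FPKM, was 0.489 and 0.5057 in PP sham, 0.4276 and 0.3535 in PPK sham, 0.3721 and 0.3194 in PP ADT, and 1.155 and 1.408 in PPK ADT. Ezh1 RNA was the more abundant of the pair in 6 libraries, and Ezh2 RNA was in the PPK ADT pair. The summed FPKM of the 2 genes was 8.602 and 8.676 in PPK ADT against 10.88 and 10.85 in PP ADT and 11.49 to 12.9 in the sham libraries, so the sum was lowest where the ratio was highest. With 1 FPKM added to each gene, PPK ADT exceeded PP ADT by 1.55 in log2 ratio, and with none added by 1.887. With 1 FPKM added, the exact two-sided permutation test of 2 against 2 libraries gave p = 0.333, the smallest this design allows.

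**Figure D2:**
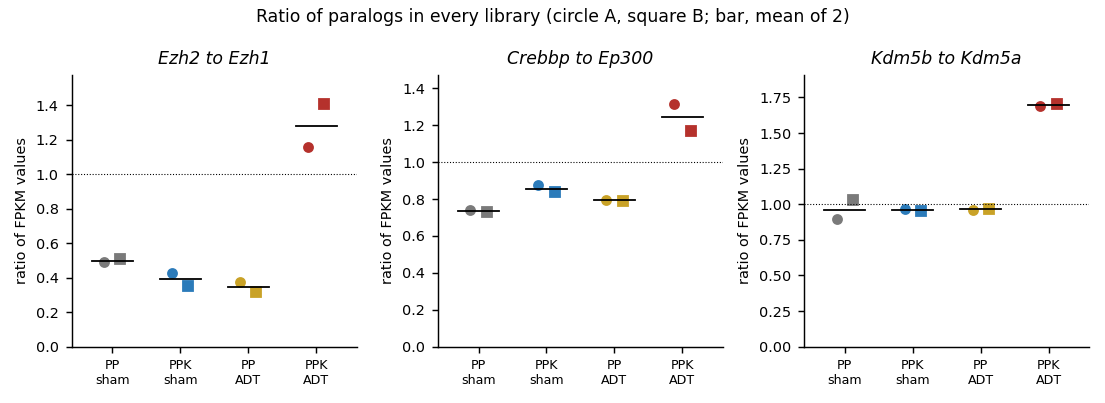
Ratio of FPKM values for Ezh2 to Ezh1, Crebbp to Ep300 and Kdm5b to Kdm5a in every library (circle A, square B, bar the mean of 2), with a dotted line at equal levels. The 2 PPK ADT libraries are above 1 in all 3 panels, and of the other 6 libraries only PP sham B in the Kdm5b panel is above 1, at 1.028.

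Eed (ENSMUSG00000030619; chr7:89954654-89980983, minus strand), the subunit that reads methylated H3K27, had group means between 10.94 and 12.44 FPKM. It measured 11.64 and 10.25 FPKM in PP sham, 12.43 and 11.12 in PPK sham, 12.13 and 12.74 in PP ADT, and 11.66 and 11.44 in PPK ADT. The sham groups overlapped, and Eed passed the limma test in none of the 4 pairwise comparisons. Between the genotypes the 95% interval of the log2 difference was -0.09 to 0.29 in sham and -0.29 to 0.09 in ADT.

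Suz12 (ENSMUSG00000017548; chr11:79993106-80034123, plus strand), which holds the complex together, rested on 1 library. It measured 15.57 and 16.19 FPKM in PP sham, 14.63 and 14.7 in PPK sham, 14.38 and 7.693 in PP ADT, and 15.05 and 15.34 in PPK ADT. PP ADT B stood apart from the other 7 libraries, which lay within 14.38 to 16.19. With all libraries the log2 difference between PPK and PP after ADT was 0.49 (SE 0.234, limma adjusted p = 0.119). Without PP ADT B it was 0.07 (limma adjusted p = 0.301), and without PP ADT A it was 0.90 (adjusted p = 0.000126). The same pair set the value for ADT against sham in PP, at -0.55 with both (limma adjusted p = 0.105), -0.13 without B and -0.96 without A.

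Kdm6b (ENSMUSG00000018476; chr11:69398508-69413675, minus strand), the eraser of H3K27 methylation, rose after ADT in both genotypes and further in PPK. It measured 47.93 and 46.45 FPKM in PP sham, 46.79 and 46.76 in PPK sham, 57.65 and 56.69 in PP ADT, and 72.88 and 69.03 in PPK ADT. The sham groups overlapped, both ADT groups lay above them, and PPK ADT lay above PP ADT. From sham to ADT it rose 1.21-fold in PP (log2 0.27, SE 0.0369, limma adjusted p = 0.00141) and 1.51-fold in PPK (log2 0.59, adjusted p = 1.72e-05). After ADT it was 1.24-fold higher in PPK than in PP (log2 0.31, limma adjusted p = 0.000455), and in sham the 95% interval of the log2 difference was -0.10 to 0.08. Kdm6b shares 286 exonic bases, 4.11% of its own, with the antisense gene Kdm6bos, which was listed at 1.3 to 4.94 FPKM, and the sources used here do not state whether counting used the strand.

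Kdm1a (ENSMUSG00000036940; chr4:136550540-136602723, minus strand), the eraser of H3K4 monomethylation, was highest in PP ADT. It measured 22.6 and 22.67 FPKM in PP sham, 23.71 and 24.45 in PPK sham, 30.11 and 27.45 in PP ADT, and 23.01 and 21.83 in PPK ADT. The PP ADT pair lay above the other 6 libraries, which stayed within 21.83 to 24.45. From sham to ADT it rose 1.26-fold in PP (log2 0.33, SE 0.0542, limma adjusted p = 0.00315). In PPK the log2 difference of ADT from sham was -0.10 (limma adjusted p = 0.155, 95% interval -0.23 to 0.03). After ADT it was 1.27-fold lower in PPK than in PP (log2 -0.35, limma adjusted p = 0.0016).

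Kdm5b (ENSMUSG00000042207; chr1:134560171-134635285, plus strand) had the largest rise of the 10 genes. It measured 8.864 and 9.958 FPKM in PP sham, 8.645 and 8.764 in PPK sham, 11.46 and 11.57 in PP ADT, and 21.79 and 21.9 in PPK ADT. Levels were ordered PPK sham, PP sham, PP ADT and PPK ADT without overlap, the sham groups not differing by the test (limma adjusted p = 0.271). From sham to ADT it rose 2.35-fold in PPK (log2 1.24, SE 0.0594, limma adjusted p = 4.97e-06) and 1.2-fold in PP (log2 0.27, adjusted p = 0.0115). The latter call was lost without PP ADT B (limma adjusted p = 0.0523). After ADT it was 1.83-fold higher in PPK than in PP (log2 0.87, limma adjusted p = 2.95e-05).

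Kdm5a (ENSMUSG00000030180; chr6:120364124-120444574, plus strand), its paralog, separated by treatment and age, which move together. It measured 9.885 and 9.685 FPKM in PP sham, 8.964 and 9.207 in PPK sham, 11.98 and 11.93 in PP ADT, and 12.87 and 12.84 in PPK ADT. Every ADT library lay above every sham library. From sham to ADT it rose 1.2-fold in PP (log2 0.27, SE 0.0445, limma adjusted p = 0.00356) and 1.37-fold in PPK (log2 0.46, adjusted p = 0.000147). Between PPK and PP the log2 difference was -0.10 in sham (limma adjusted p = 0.161) and 0.10 in ADT (adjusted p = 0.106), both short of the threshold. The ratio of Kdm5b to Kdm5a was 1.693 and 1.706 in PPK ADT and 0.8967 to 1.028 in the other 6 libraries. Kdm5a shares 1.77% of its exonic bases with Ccdc77, listed at 1.16 to 1.51 FPKM.

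Crebbp (ENSMUSG00000022521; chr16:4081328-4213997, minus strand) was raised in PPK ADT. It measured 7.557 and 7.446 FPKM in PP sham, 7.598 and 7.654 in PPK sham, 7.786 and 7.307 in PP ADT, and 13.24 and 12.08 in PPK ADT. The PPK ADT pair lay above the other 6 libraries, which stayed within 7.307 to 7.786. It was 1.6-fold higher than in PP ADT (log2 0.68, SE 0.0622, limma adjusted p = 0.000124) and 1.58-fold higher than in PPK sham (log2 0.66, adjusted p = 0.000125). In PP the log2 difference of ADT from sham was 0.01 (limma adjusted p = 0.938, 95% interval -0.14 to 0.16).

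Ep300 (ENSMUSG00000055024; chr15:81585351-81652077, plus strand), the paralog of Crebbp, had group means between 8.916 and 10.19 FPKM. It measured 10.18 and 10.2 FPKM in PP sham, 8.686 and 9.145 in PPK sham, 9.765 and 9.238 in PP ADT, and 10.05 and 10.33 in PPK ADT. PPK sham was the lowest group, and PPK ADT overlapped PP sham. From sham to ADT it rose 1.13-fold in PPK (log2 0.17, SE 0.0532, limma adjusted p = 0.0267). That call was lost without PPK sham A, PPK ADT A or PPK ADT B and when only the 2 groups were fitted, with adjusted p up to 0.114. In sham the level in PPK was 1.13-fold below PP, short of the threshold (log2 -0.17, limma adjusted p = 0.0523). Crebbp to Ep300 stood at 1.317 and 1.169 in PPK ADT and at 0.7299 to 0.8748 in the other 6 libraries, and the summed FPKM of the pair was 23.29 and 22.41 in PPK ADT against 16.28 to 17.74 elsewhere.

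**Figure D3:**
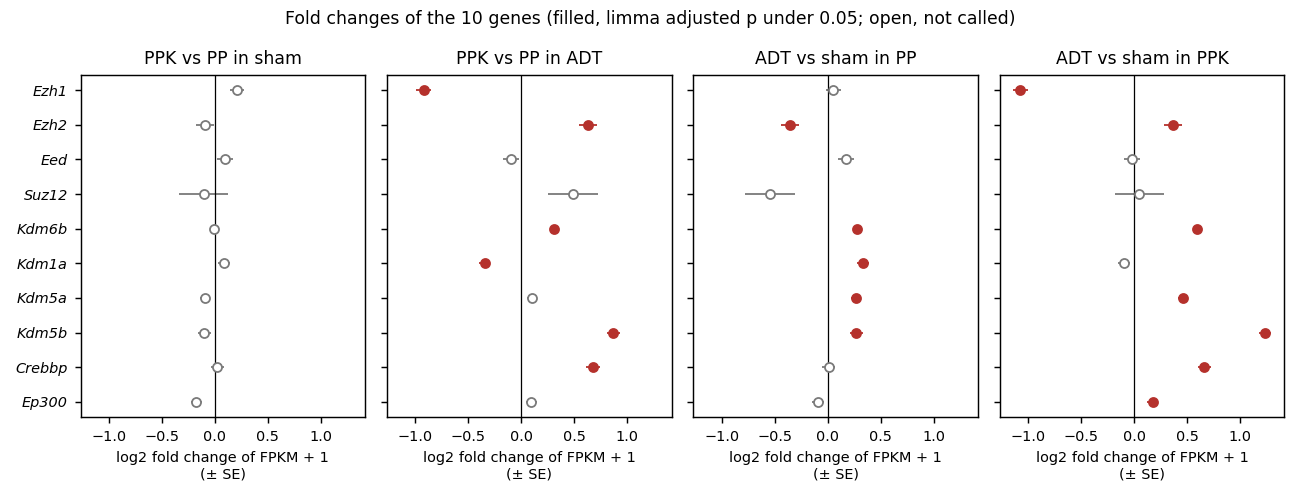
Log2 fold change of each of the 10 genes in 4 comparisons, from the limma fit on log2(FPKM + 1), with the standard error as a bar and genes called at an adjusted p under 0.05 filled. Ezh1 reaches -1.08 and Kdm5b 1.24 for ADT against sham in PPK, while every gene lies within 0.21 of 0 for PPK against PP in sham.

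The change from sham to ADT differed between the genotypes for 8 of the 10 genes by the interaction term of the limma fit, which takes the PPK minus PP difference in ADT and subtracts that in sham. Of all tested genes, 52.8% passed, 30% with a positive and 22.8% with a negative term. It was positive for 6 of the 10 (Ezh2, Kdm6b, Kdm5a, Kdm5b, Crebbp and Ep300) and negative for Ezh1 and Kdm1a. Only Ezh1 passed 2-fold, as 21% of tested genes did. The largest were -1.13 for Ezh1 (SE 0.099, limma adjusted p = 0.000135) and 0.97 for Kdm5b (SE 0.0841, adjusted p = 0.000129). Kdm5a held its call in 4 of 16 alternatives, and Ep300 lost it in 6 of 16. Within PP, ADT against sham was called for 5 of 10 genes, 4 higher and 1 lower, where 44.2% of all tested genes were called (19% higher and 25.1% lower). None of the 5 reached 2-fold, as 8.67% of tested genes did. Within PPK, 7 of 10 were called, 6 higher and 1 lower, where 62.6% of all were (32% higher and 30.7% lower), and Ezh1 and Kdm5b passed 2-fold, as 19.7% of tested genes did. These comparisons share libraries, so their values stand side by side and are not independent.

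The genes most like Ezh1 across the 8 libraries, by the distance between log2 values centred on each gene's mean, were Sox9, Ccser2 and Lama5, at root mean square distances of 0.043, 0.049 and 0.049. Sox9, a transcription factor of prostate development, had group means of 128.9, 149.7, 130.1 and 68.72 FPKM in PP sham, PPK sham, PP ADT and PPK ADT. Those nearest to Kdm5b were Pycard, Ncl and Pard3, at 0.071, 0.073 and 0.074. Ncl, which encodes nucleolin, had group means of 35.13, 34.39, 39.81 and 77.9 FPKM in the same order. Libraries and groups are shared by every gene here, so these are descriptions.

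Of the other genes of Polycomb complexes, the PRC2 accessory subunits gave 3 higher and 1 lower among 7 tested in PPK ADT against PP ADT, with a median log2 fold change of 0.29 beside 0.05 over all genes. In that comparison 32.5% of all tested genes were higher and 27.1% lower. These shares stand beside every list count for PPK against PP after ADT below. In sham 28.6% of all tested genes were called. Aebp2, a stimulating subunit of PRC2, averaged 19.2 FPKM in PPK ADT and 10.15 in PP ADT (log2 0.85, limma adjusted p = 0.000186). Epop stood at 3.201 and 0.7729 (log2 1.24), and Jarid2, which recruits PRC2, at 6.166 and 3.739 (log2 0.59). In sham Aebp2 was also higher in PPK (log2 0.50, limma adjusted p = 0.00608), while the histone-binding subunits Rbbp7 (log2 -0.50) and Rbbp4 (log2 -0.24) were lower.

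PRC1, the complex that binds methylated H3K27 and compacts chromatin, gave 4 higher and 6 lower among 21 tested in ADT. Cbx7, a subunit that reads the PRC2 mark, averaged 1.426 FPKM in PPK ADT and 4.583 in PP ADT (log2 -1.20, limma adjusted p = 2.60e-05). Phc2 averaged 9.634 and 15.7 (log2 -0.65). Phc3 also passed (log2 -1.71), but its replicates spread widely, at 5.164 and 15.94 FPKM in PP sham and 9.398 and 3.761 in PP ADT. In sham Cbx8 (log2 -0.49) and Rybp (log2 -0.40) were lower in PPK. Of 5 genes that oppose Polycomb, Kdm6a, the partner of Kmt2c and paralog of Kdm6b, was higher in PPK after ADT (6.208 against 4.596 FPKM in PP, log2 0.37), Asxl2 (log2 -0.58) and Uty (log2 -0.24) were lower, and none passed in sham.

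The other demethylases split, with 5 higher and 6 lower among 14 tested in ADT. Hr (log2 1.03) and Kdm3a (log2 0.59), which act on H3K9, were higher in PPK, and Jmjd1c (log2 -0.81) was lower. CoREST partners of Kdm1a gave 4 higher and 1 lower among 11. Rcor2 averaged 8.622 FPKM in PPK ADT and 2.755 in PP ADT (log2 1.37), the deacetylase Hdac2 averaged 21.05 and 9.692 (log2 1.05, limma adjusted p = 5.68e-05), and Gse1 averaged 5.937 and 12.79 (log2 -0.99). No CoREST partner passed for ADT against sham in PP, where 44.2% of all tested genes passed.

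Of the other acetyltransferases, 7 of 11 tested were lower in PPK after ADT and 2 were higher, beside 27.1% and 32.5% of all tested genes. Their median log2 fold change was -0.30, beside 0.05 over all tested genes. Kat2b averaged 10.36 FPKM in PPK ADT and 23.19 in PP ADT (log2 -1.09, limma adjusted p = 1.50e-06), and its paralog Kat2a averaged 16.5 and 8.512 (log2 0.88, adjusted p = 6.28e-05). The nuclear receptor coactivator Ncoa3 was lower (log2 -0.53). In sham none of the 11 passed the limma test, beside 28.6% of all tested genes. Histone deacetylases and corepressors gave 2 higher and 4 lower among 15 after ADT, and acetyl-lysine readers 3 higher and 4 lower among 12. Brd9 (log2 0.45) and Brd1 (log2 0.42) were among the higher readers and Brd8 (log2 -0.33) among the lower.

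Classic targets of Polycomb, 41 Hox and Cdkn2 genes of which 24 were tested and 11 were listed at 0 in every library, gave 8 higher and 2 lower in PPK sham against PP sham. Of all 14000 tested genes, 1920 were higher and 2080 lower in that comparison. Hoxd12 averaged 3.098 and 1.098 FPKM (log2 0.97), Hoxb6 averaged 9.614 and 4.824 (log2 0.87), and Hoxd11 averaged 4.248 and 1.89 (log2 0.86, limma adjusted p = 0.00215). After ADT the list gave 4 higher and 10 lower in PPK, with a median log2 fold change of -0.20. Of all tested genes, 32.5% were higher and 27.1% lower there. Hoxb13, a prostate transcription factor that works with the androgen receptor, measured 32.64 and 31.02 FPKM in PP sham, 28.72 and 25.65 in PPK sham, 5.991 and 7.574 in PP ADT, and 1.595 and 2.045 in PPK ADT. Every ADT library was below every sham library, and PPK ADT was below PP ADT (log2 -1.46, limma adjusted p = 7.94e-05). Cdkn2a, the cell cycle inhibitor locus, measured 3.524 and 4.553 FPKM in PP sham, 1.682 and 3.031 in PPK sham, 10.18 and 11.49 in PP ADT, and 13.86 and 12.47 in PPK ADT. It rose after ADT in PP (log2 1.24, limma adjusted p = 0.00305) and in PPK (log2 2.10, adjusted p = 0.000133), and between the genotypes it passed in neither sham nor ADT. No histone mark was measured, so none of these values says whether a gene carries H3K27 methylation.

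**Figure D4:**
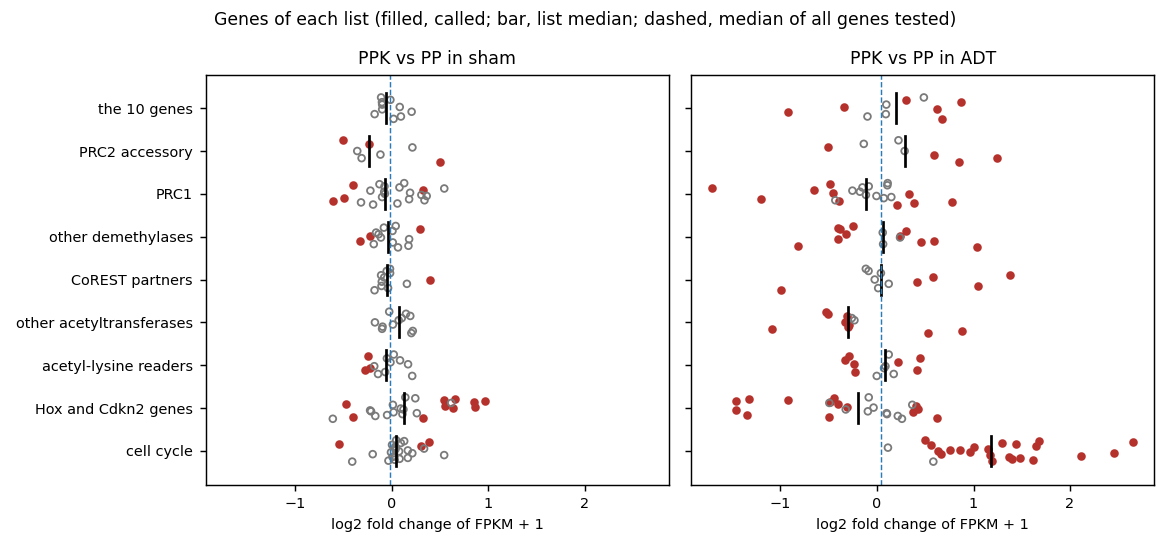
Log2 fold change of every tested gene of the 10 and of 8 related lists between PPK and PP, in sham (left) and after ADT (right), filled where limma called it, with the list's median as a bar and that of all tested genes as a dashed line. In sham no acetyltransferase was called, and after ADT the cell cycle genes had a median of 1.18 and the other acetyltransferases of -0.30.

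Cell cycle genes differed between the groups as well. Of 24 tested genes of DNA replication and mitosis, 22 were called higher in PPK than in PP after ADT and none lower. Their median log2 fold change was 1.18, and 32.5% of all tested genes were called higher. In PP 14 fell after ADT, beside 25.1% of all tested genes. A low gene could pass the filter of 1 FPKM only through the group where it is high, which favours calls in that direction. The summed level of all 26 genes listed was 163.4 and 166.5 FPKM in PPK ADT, 60.67 and 66.39 in PP ADT, and 89.58 to 95.47 in the sham libraries. Mki67, a marker of dividing cells, measured 10.49 and 10.54 FPKM in PPK ADT and 2.649 and 2.686 in PP ADT. By group, Ezh2 and this sum were both lowest in PP ADT and both highest in PPK ADT. In sham Ezh2 averaged 3.855 FPKM in PP and 3.543 in PPK, a difference that did not pass (log2 -0.10, limma adjusted p = 0.451, 95% interval -0.30 to 0.11). The sum was 89.58 to 89.73 in PP sham and 92.29 to 95.47 in PPK sham. The part of these genes in the result was not tested.

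**Figure D5:**
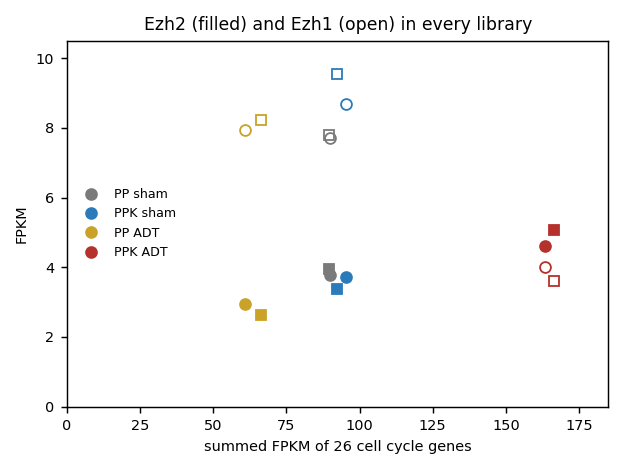
FPKM of Ezh2 (filled) and Ezh1 (open) against the summed FPKM of 26 cell cycle genes, 1 point per library (circle A, square B), coloured by group. Filled points run from PP ADT at the lower left to PPK ADT at the right, where the open points are lowest.

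Markers of cell type also moved, and not all with the same group. Between PPK and PP, 32.5% of all tested genes were called higher and 27.1% lower after ADT. In sham 1920 of 14000 were higher and 2080 lower. Basal markers summed to 6249 and 6312 FPKM in PPK ADT and to 935.5 to 1437 in the other libraries. Of 10 tested, 8 were called higher in PPK after ADT and 1 lower. Squamous markers, 8 of 9 higher, summed to 2575 and 2623 against 335.1 to 582. Luminal markers, 11 of 12 lower, summed to 4726 and 4723 against 8167 to 10270. Fibroblast markers, 7 of 7 tested higher, summed to 47.28 and 49.34 in PPK ADT, 5.629 and 5.284 in PP ADT, 21.35 and 20.82 in PPK sham, and 6.849 and 7.312 in PP sham. Macrophage markers summed to 54.79 and 53.76 in PPK ADT, 135.9 and 146.1 in PP ADT, 133.5 and 135.2 in PPK sham, and 65.69 and 65.41 in PP sham. Of 7 tested, 5 were lower and 1 higher in PPK after ADT, and in sham 6 were higher and 1 lower. Neutrophil markers, 2 of 10 tested, summed to 13.99 and 13.49 in PPK ADT, 4.805 and 5.026 in PP ADT, 6.737 and 4.921 in PPK sham, and 0.484 and 0.5081 in PP sham. Both tested were higher in PPK in sham and after ADT, and higher after ADT in each genotype. No neutrophil marker reached 1 FPKM in PP sham, so the 2 passed the filter only through the other groups. Their direction against PP sham was therefore favoured in advance. The same filter can favour the higher group for low markers of other lists, such as those of fibroblasts. Seminal vesicle markers followed treatment together with age, at 1273 and 1277 in PP sham and 566.5 and 561.7 in PPK sham against 0.9525 to 6.672 in the ADT libraries. Immediate early genes, which also respond to tissue dissociation, summed to 3591 and 3601 in PPK ADT, 5382 and 5375 in PP ADT, 6154 and 6210 in PPK sham, and 8275 and 8160 in PP sham. In PPK against PP, 13 of 20 were lower and 4 higher after ADT, and 17 lower and 2 higher in sham. Early NF-kB targets summed to 439.2 and 433.5 in PPK ADT, 886.8 and 876.6 in PP ADT, 972.8 and 966.4 in PPK sham, and 658.3 and 647.5 in PP sham. After ADT 10 of 13 were lower in PPK and 3 higher, while in sham 10 were higher and none lower. Lymphocyte markers summed to at most 1.178 FPKM. Of the lists named here, Elane of the neutrophil list was the 1 marker at 0 in all 8 libraries. The part of these markers and genes in the results for the 10 genes was not tested, and in bulk RNA fewer cells of a type and less RNA per cell cannot be told apart.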

How the data were processed

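RNA-seq of sorted prostate epithelium was used in 8 libraries, 2 in each of 4 groups. Per the labels' protocols, Trizol total RNA was made into strand-specific TruSeq libraries. The authors deposited FPKM values, 1 table per library. FastQC 0.11.2 and the build mm10 appear in the submitters' processing notes. Which aligner, quantifier and annotation made the values is not given in the sources used here. Which gene is altered in both genotypes is not reported here, and organoid samples were not used here.

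Joining gave 55335 identifiers, of which 55154 have a symbol in GENCODE M21 (GRCm38). FPKM are not counts, their smallest non-zero value was 1e-06 and their low values showed no steps of whole reads, so depth cannot be recovered and counting error is not shown. Values were tested as log2(FPKM + 1) in limma 3.58.1 (R 4.3.3), with 4 group means, a mean-variance trend, 4 residual and about 2.4 prior degrees of freedom, on the 14000 genes with at least 1 FPKM in at least 2 libraries, with Benjamini-Hochberg adjustment and a threshold of 0.05. A fold on this scale understates the change of genes with low values. Ratios of paralogs used an exact permutation test. On simulated data with 200 of 14000 genes changed, the fit for PPK against PP in ADT recovered 78.4% of 2-fold and 96.8% of 4-fold changes, and the interaction term 62.4% and 89.2%. In the data 59.6% and 52.8% of tested genes were called in these 2 contrasts. The adjusted threshold depends on that share, so the simulated rates do not carry over to the data.

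The 10 genes and the related lists were chosen with earlier results of these data known. Beyond the 10, up to 3 genes could be named per list and comparison: those called with the largest changes, with non-overlapping groups of which the higher averaged 2 FPKM or more, or, where none was called, the 2 most abundant, and Mki67, Hoxb13 and Cdkn2a in all. Genes of like pattern were sought for members whose group means span at least 1 on the log2 scale, among genes with a mean of at least 5 FPKM in their highest group. Letters A and B did not pair the libraries, with correlations of same-letter deviations from -0.008 to 0.057. Alternatives were another pseudocount (0.1), no filter, a mean of at least 5 FPKM, median-of-ratios and quantile scaling, a replicate block, no trend, array weights, only the groups compared, a 2-fold minimum and leaving out each library. Python 3.11.15 joined the tables and searched the promoters.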

Additional observations from a re-analysis of the deposited data

Results flagged for a closer look

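For 8 of the 10 genes the genotype effect in ADT differed from that in sham, by the interaction term of the limma fit over 4 groups of 2 libraries (log2 scale, PPK minus PP in ADT minus the same in sham). The difference was -1.128 for Ezh1, which was 1.15-fold higher in PPK in sham, short of the threshold, and 1.89-fold lower in ADT. Kdm5b followed with 0.967, Ezh2 with 0.721 and Crebbp with 0.655. Kdm1a had -0.431 and Kdm6b 0.319. These 6 kept their call in every alternative that gave a value, the 2-fold minimum aside. Ep300 at 0.267 (limma adjusted p = 0.0237) and Kdm5a at 0.193 (limma adjusted p = 0.04) were the weakest. Ep300 stood 1.13-fold lower in PPK in sham and 1.07-fold higher in ADT, and neither of those 2 effects passed the test on its own. The remaining 2 genes, Eed (-0.195, limma adjusted p = 0.184) and Suz12 (0.593, limma adjusted p = 0.18), did not pass. Of all 14000 tested genes, 52.8% passed the same term.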

How the results depend on the processing

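Of 50 results for single genes (10 genes, 5 contrasts), 26 were called, 20 of these kept their call in every alternative run other than the 2-fold minimum, 6 lost it in at least 1, and none reversed. Of the 24 not called, 6 gained a call in at least 1 alternative, among them Suz12 in 3 contrasts without PP ADT A. The sham count of 0 genes became 1 with a mean of at least 5 FPKM (Ep300) and 1 with quantile normalization (Ezh1). That filter lowered the counts over all genes to 4918 (PPK against PP in ADT), 3933 (ADT in PP), 5056 (ADT in PPK) and 4476 (interaction), from fewer genes tested, and left Ezh2 untested. Adding a 2-fold minimum left 515 genes in sham, 2498 for PPK against PP in ADT, 1214 for ADT in PP, 2761 for ADT in PPK and 2944 for the interaction, and of the 10 genes 0, 0, 2 and 1 in the last 4. With a replicate block the 10 genes gave 0, 6, 5, 7 and 7 calls and all genes 3755, 8182, 6013, 8626 and 7186, the 1 lost call being the Kdm5a interaction (limma adjusted p = 0.0633). The labels do not say that the letters pair libraries, so this block was run only as an alternative.

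Leaving out 1 library at a time gave 0 to 0 of the 10 genes called in sham (2758 to 3819 of all genes), 6 to 7 for PPK against PP in ADT (7266 to 8279), 3 to 6 for ADT in PP (4778 to 6079), where 3 were left without PP ADT B, 5 to 7 for ADT in PPK (7648 to 8624) and 6 to 8 for the interaction (6529 to 6755). The log2 ratio difference of Ezh2 to Ezh1 was 1.43 to 1.66, that of Crebbp to Ep300 0.504 to 0.663 and that of Kdm5b to Kdm5a 0.762 to 0.781. With no added FPKM the first was 1.887, and with 0.1 it was 1.846. No scaling moved the median of all genes by over 0.1, but median-of-ratios scaling turned the balance of calls for ADT in PP from 2667 higher and 3518 lower to 3191 and 2854. Fitting only the groups compared gives no interaction. Pairs of libraries and the absence of counts limit precision.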
